A study of Homo sapiens with 48 samples.

Results

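Peaks of RELA, RELB, FOSL1 and the active histone mark H3K27ac were examined around 10 regulators of cell survival and apoptosis, CFLAR, XIAP, BCL2L1, MCL1, BCL2A1, BCL2L11, PMAIP1, BID, CASP8 and RIPK1, out of 20033 protein-coding genes of GENCODE 44. The genes were chosen by name. Every peak of the 16 lists that overlapped a gene body or the 50 kb on either side of it (the window of the gene, 104.3 to 228.4 kb long) was assigned to that gene. The data were ChIP-seq of L3.6pl, an established human pancreatic ductal adenocarcinoma (PDAC) cell line, with 48 samples in 16 conditions of 3 replicates. RELA, RELB and H3K27ac were profiled in vehicle-treated cells (PBS) and after TNFα (10 ng/ml) or TWEAK (10 ng/ml) for 30 min or 6 h, while FOSL1, an AP-1 subunit, was profiled in vehicle alone. The labels do not say how long vehicle was given, all cells were of the same line, and protein G beads were used for RELA where protein A beads were used for the other antibodies. There was 1 peak list per condition, called on merged samples, which leaves the values without an error between replicates and without a test. The peak names of the RELA list at 30 min of TNFα name replicate 1 as well as a merge, and whether all 3 replicates entered it is unsettled. The strength of a peak is given as its fold enrichment over input and its rank by that fold within its own list, and lists can differ in length through sequencing depth, which is unknown here.

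TNFα activates canonical NF-κB, whose RELA subunit moves into the nucleus within minutes, and TWEAK activates noncanonical NF-κB, in which RELB is released after slow processing of its partner. Death receptors signal through an adaptor complex with RIPK1 and caspase-8, which CFLAR (FLIP) holds in check. At the mitochondrion, anti-apoptotic BCL2 family proteins are opposed by BH3-only proteins such as BIM (BCL2L11), NOXA (PMAIP1) and BID, and XIAP blocks caspases further downstream. CFLAR, XIAP, BCL2L1 and BCL2A1 are textbook NF-κB target genes.

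The RELA sites on which the results turn are shown by their DNA, because the letters under the summits differed between genes. All sequences are the plus strand of hg38, with matches to the κB consensus, the NF-κB recognition sequence, and to the AP-1 letters TGANTCA in capitals. The first 3 are the strongest sites of their genes among those holding a κB consensus within 100 bp of the summit. The BID intron site and the MCL1 site were added after their values had been seen. The MCL1 site holds AP-1 letters and no full match to the κB consensus, though the letters gggaaattgc at its summit come near it. CFLAR is shown with 30 bases only, since an annotated untranslated region overlaps its site.
BID, 7.45 kb upstream, chr22:17781882-17781952: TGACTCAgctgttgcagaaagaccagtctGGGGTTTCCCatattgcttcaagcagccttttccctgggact
CFLAR, 66.8 kb downstream of its start, chr2:201182970-201182999: gctttacctgGGGAAACCCCaagctctaca
BCL2A1, intron 1, chr15:79966068-79966138: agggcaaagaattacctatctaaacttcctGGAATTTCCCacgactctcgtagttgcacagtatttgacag
BID, intron 3, chr22:17742486-17742556: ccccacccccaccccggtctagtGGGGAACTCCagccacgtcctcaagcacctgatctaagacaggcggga
MCL1, 32.1 kb upstream, chr1:150611684-150611796: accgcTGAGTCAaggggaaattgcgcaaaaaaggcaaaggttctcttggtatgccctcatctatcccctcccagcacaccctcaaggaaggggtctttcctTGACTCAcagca

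Before treatment, no RELA or RELB peak lay in any of the 10 windows. After 30 min of TNFα, RELA peaks were present in 9 of the 10, with CASP8 as the exception, and 22 separate RELA sites were called. A RELA peak lay in the window of 48.1% of all protein-coding genes in that list and of 5.05% in vehicle, so a RELA peak near a gene was common after TNFα. The 9 genes with a RELA peak after TNFα and neither RELA nor RELB in vehicle compared with 42.8% of all genes. Among all genes the share was higher for longer windows, at 45.2% for windows of 100 to 120 kb, 47.1% for 120 to 160 kb, 50.5% for 160 to 240 kb and 57.4% for those of 240 kb or more, a class that held none of the 10 genes. A window held a median of 2 RELA peaks for the 10 genes and of 0 for all genes.

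At 6 h of TNFα, RELA was called at 5 of the 10 genes, namely CFLAR, MCL1, PMAIP1, BID and RIPK1, against 26.8% of all genes. The same 5 genes held RELA at both times, compared with 25.2% of all genes. After 30 min of TWEAK, RELA was called only at RIPK1 among the 10 (7.58% of all genes), and at 6 h of TWEAK at none (5.12% of all genes). RELB was called at 2 of the 10 genes, MCL1 and PMAIP1, and only in the list of 6 h of TWEAK, in which 13.6% of all genes held a peak. The other RELB lists had no peak in any of the 10 windows, and they reached few genes elsewhere, 3.06% in vehicle, 1.59% and 3.87% in the 30 min and 6 h lists of TNFα, and 1.41% in that of 30 min TWEAK. Counts of 0 to 2 among 10 genes lie near these shares and say nothing particular about the 10.

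**Figure D1:**
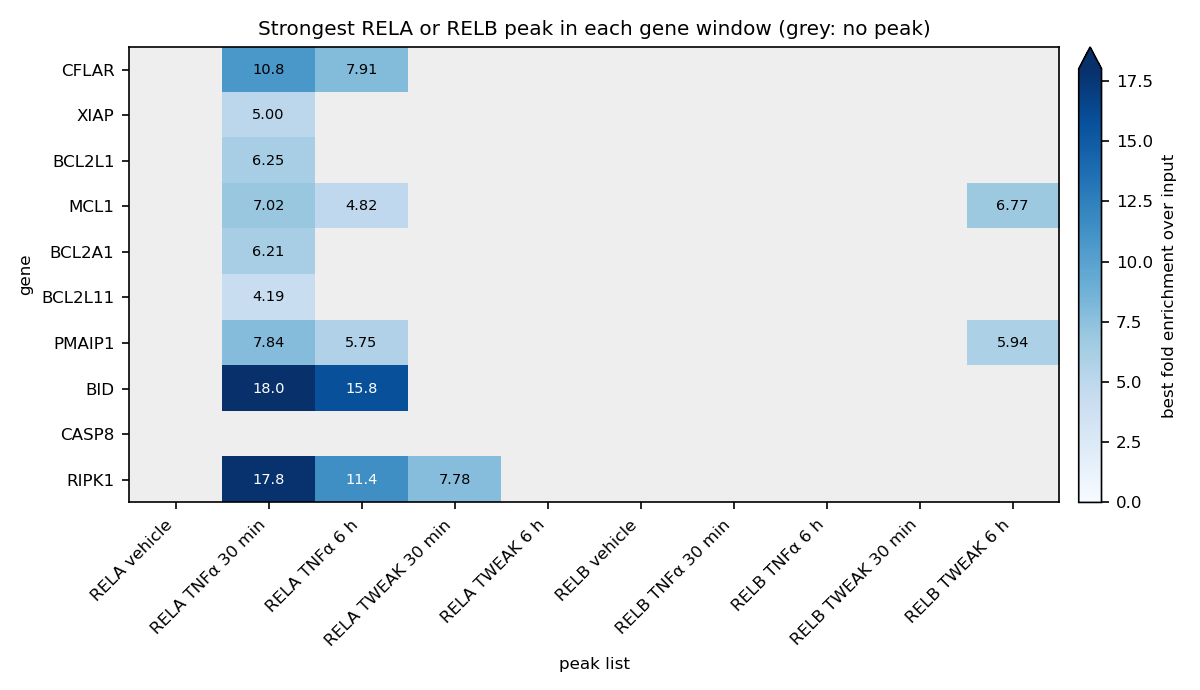
Fold enrichment over input of the strongest RELA or RELB peak in the window of each gene (rows) in each of the 10 lists (columns), with grey where no peak was called. The vehicle columns are empty, BID (18.01) and RIPK1 (17.8) are highest at 30 min of TNFα, and RELB appears at MCL1 (6.77) and PMAIP1 (5.94) at 6 h of TWEAK alone.

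The 22 sites lay in the middle and lower part of the fold range of the RELA list, which ran from 1.46 to 36.4. Their fold enrichment ran from 3.54 to 18.01 with a median of 5.91, beside a median of 5.93 over all 11266 peaks of 30 min of TNFα, and 11 of the 22 were below that median. The strongest peak per gene had a median fold of 7.02 for the 9 genes and of 7.51 for all genes with a peak. By strength, the sites near apoptosis regulators lay around the middle of the list, and BID and RIPK1 held the 2 of them in its top 5%.

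CFLAR, an inactive relative of caspase-8 that blocks it at the receptor, had the most RELA sites of the 10 genes, 5 in number. The gene lies at chr2:201116154-201176687 on the plus strand. A site 590 bp into the transcript, in intron 1, reached 7.71-fold at 30 min of TNFα and was absent from the 6 h list. A second intron 1 site, 2.47 kb from the start, was 5.80-fold at 30 min and 5.26-fold at 6 h. Sites in intron 1 at 13.2 kb and in intron 8 at 42.2 kb were called at 30 min alone, at 8.54-fold and 4.48-fold. The strongest site of the window was 10.8-fold at 30 min (rank 1422 of 11266) and 7.91-fold at 6 h (rank 1699 of 7294). It lay 6293 bp past the end of CFLAR and 161 bp from the start of CASP10, another initiator caspase gene, inside the CASP10 gene body. Of the 5 CFLAR sites, 4 held a κB consensus within 100 bp of the summit, and the 13.2 kb site held none.

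XIAP, which binds and inhibits caspases, had a single RELA site, 35.02 kb upstream of its start on chromosome X. It was 5.00-fold at 30 min of TNFα, rank 7786 of 11266, and in no other RELA or RELB list. At the same place FOSL1 was 15.4-fold in vehicle, rank 1278 of 58864 FOSL1 peaks, with the summits 69 bp apart. The 200 bp around the RELA summit held AP-1 letters and no κB consensus. XIAP thus had the strongest FOSL1 peak under any of the 22 sites, beside a RELA peak of the weaker part of its list.

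Among the anti-apoptotic BCL2 family members, BCL2L1 (BCL-XL) had a pair of RELA sites within intron 2, 18.2 and 18.6 kb from its start, both at 30 min of TNFα alone. The stronger was 6.25-fold, rank 5010, and coincided with a FOSL1 peak (6.87-fold, summits 6 bp apart). The weaker, 3.54-fold, was the only one of the 22 sites in a tandem repeat, a class that held 26.3% of all RELA peaks of that list. BCL2A1 (BFL-1) had a RELA site in its own intron 1, 5.09 kb from the start, at 6.21-fold (rank 5048). The κB letters GGAATTTCCC shown above spanned the summit base. No H3K27ac peak lay within 500 bp of this site in any of the 5 lists. The other site in the BCL2A1 window, 3.997-fold, was 144 bp from the start of ST20-MTHFS and 47.3 kb from that of BCL2A1.

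MCL1, a short-lived anti-apoptotic protein, had 3 RELA sites at 30 min of TNFα. The first, 4.96-fold, spanned chr1:150579480-150579667 with its summit 3 bp into the canonical transcript, in the untranslated part of exon 1. The others lay 32.1 and 34.0 kb upstream, in the body of ENSA outside its canonical transcript, at 7.02-fold and 6.02-fold. Only the site at 34.0 kb was also in the RELA list of 6 h of TNFα, at 4.82-fold (rank 5134 of 7294). Only the site at 32.1 kb was in the RELB list of 6 h of TWEAK, at 6.77-fold (rank 1601 of 4052), with the RELA and RELB summits 53 bp apart. RELA after 6 h of TNFα and RELB after 6 h of TWEAK were thus called at different neighbouring sites of MCL1, under different ligands. Both upstream sites overlapped FOSL1, at 7.76-fold and 7.65-fold. At the shared site the FOSL1 and RELA summits were 1 bp apart.

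**Figure D2:**
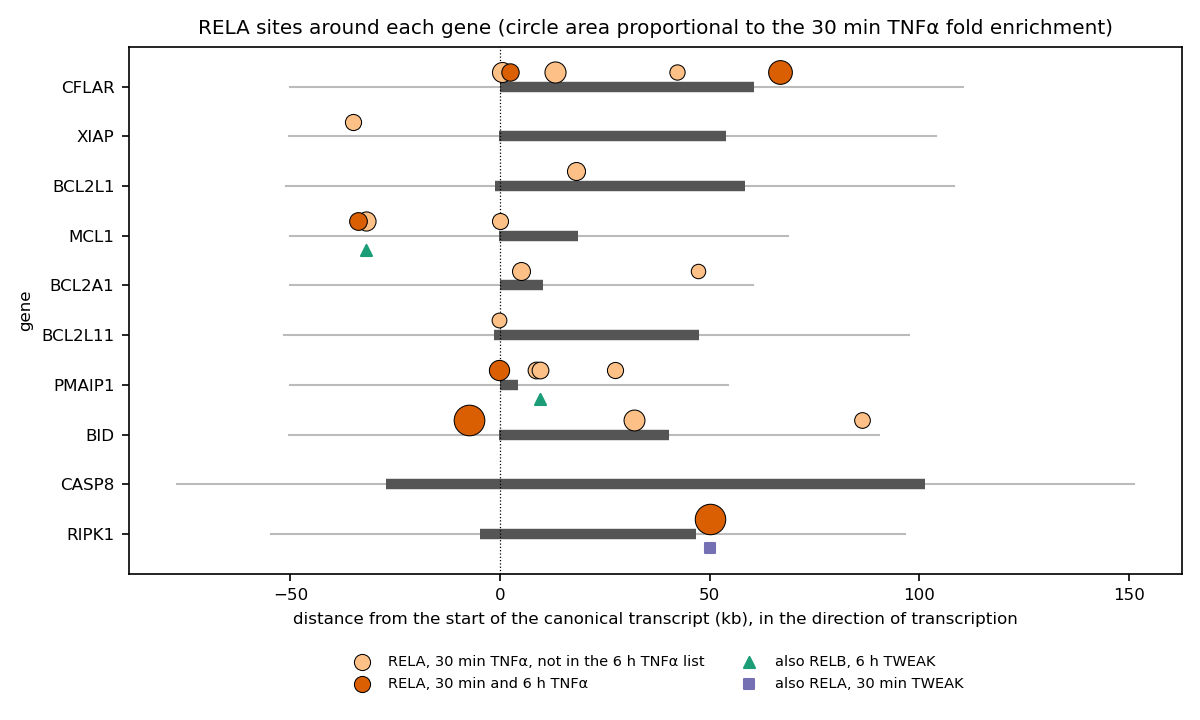
Position of the 22 RELA sites relative to the start of the canonical transcript (x axis, kb in the direction of transcription) for each gene (rows). Thick bars are gene bodies, thin lines the windows, and circle area is proportional to the fold enrichment at 30 min of TNFα; dark circles were also called at 6 h of TNFα, triangles mark RELB at 6 h of TWEAK and the square RELA at 30 min of TWEAK. CASP8 has no site, and the largest circles are those of BID and RIPK1.

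Among the BH3-only genes, BCL2L11 (BIM) had a single weak RELA site, 4.19-fold (rank 10008 of 11266), 241 bp upstream of its canonical start. PMAIP1 (NOXA), at chr18:59899996-59904305, had 4 sites. That 157 bp upstream of the start was 7.84-fold at 30 min (rank 3075) and 5.75-fold at 6 h of TNFα, and it held no κB consensus within 100 bp of the summit. A pair of sites 8.60 and 9.43 kb downstream of the start, past the end of the gene, was 5.39-fold each at 30 min. The farther of them was also the RELB site of 6 h of TWEAK, at 5.94-fold (rank 2168 of 4052, summits 7 bp apart), and it alone of the pair lacked a κB consensus. The fourth site, 27.4 kb downstream, was 5.00-fold at 30 min.

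BID, which caspase-8 cleaves to carry the death signal to mitochondria, had the strongest RELA site of all 10 genes. It lay at chr22:17781485-17782065, 7.45 kb upstream of the BID start, and BID was the nearest protein-coding gene. RELA was 18.01-fold there at 30 min (rank 200 of 11266) and 15.8-fold at 6 h of TNFα (rank 187 of 7294). No RELA peak was called at this site in vehicle or after TWEAK, and no RELB peak in any list. The κB letters and the AP-1 letters TGACTCA stood beside the summit, and no FOSL1 peak was called there in vehicle. A second BID site, in intron 3 and 31.9 kb from the start, was 8.38-fold at 30 min (rank 2680) and absent at 6 h. The weakest, 4.73-fold, lay in intron 3 of BCL2L13 with BCL2L13 as the nearest gene.

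In the death receptor complex, CASP8, the initiator caspase, had no RELA or RELB peak in any of the 10 lists, although its window of 228.4 kb was the longest of the 10. The nearest RELA peak was that at the CASP10 start, 345 bp outside the CASP8 window, at 10.8-fold. The CFLAR and CASP8 windows overlapped by 43.24 kb, which held no RELA site. Beyond the windows of PMAIP1, BCL2L1 and XIAP, the next RELA peaks lay 2566, 3460 and 5788 bp outside, at 5.77-fold, 5.60-fold and 5.00-fold.

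RIPK1, the kinase that scaffolds NF-κB activation and cell death at the TNF receptor, had a single RELA site, in 3 lists. It was 17.8-fold at 30 min of TNFα (rank 219 of 11266), 11.4-fold at 6 h (rank 640 of 7294) and 7.78-fold at 30 min of TWEAK (rank 740 of 2791). The site was in neither the vehicle list nor that of 6 h of TWEAK. It lay at chr6:3118357-3118758, 3360 bp past the end of RIPK1 and 164 bp from the start of BPHL, which was the nearest gene. No match to the κB consensus, nor to a looser form of it, was found within 100 bp of the summit.

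**Figure D3:**
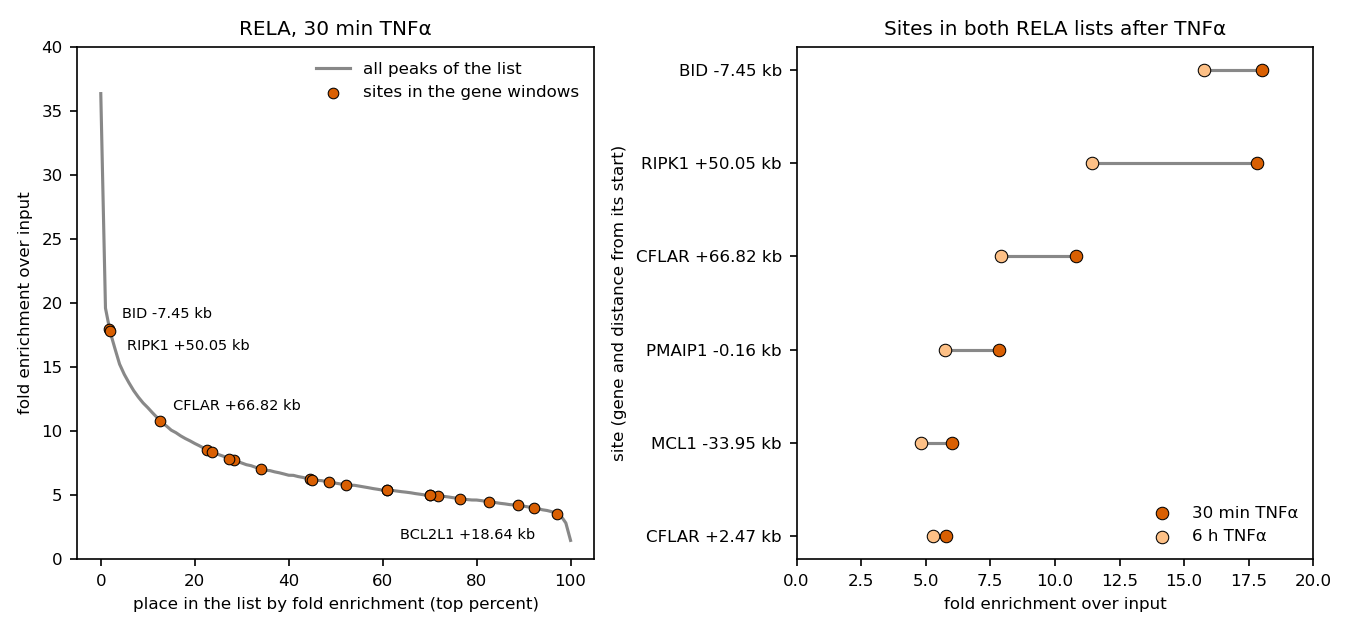
Left, fold enrichment over input (y axis) against place in the RELA list of 30 min of TNFα (x axis, top percent), with the grey line for all 11266 peaks and points for the 22 sites. Right, fold enrichment of the 6 sites called at both times of TNFα (dark, 30 min; light, 6 h), which was lower at 6 h at each site.

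Of the 22 sites, 6 were also called at 6 h of TNFα (27.3%, exact 95% binomial interval 10.7 to 50.2%), beside 45.2% of all RELA peaks of 30 min and 35.3% of those outside tandem repeats. Such intervals cover counting error only, over sites of 1 list. At each of the 6 the fold was higher in the 30 min list, and the summits of both times were within 100 bp. How often this holds over all RELA peaks called at both times was not computed, so it describes these sites alone. The median fold over all peaks was 5.93 in the 30 min list and 5.74 in the 6 h list. The values of BID were close (18.01 and 15.8) and those of RIPK1 farther apart (17.8 and 11.4), with each list scaled to its own libraries. Another 14 sites were in the 30 min list and no other RELA or RELB list. None of the 22 was in the RELA list of vehicle (interval 0.0 to 15.4%), beside 19.3% of all peaks and 4.32% outside tandem repeats. The 2 sites shared with RELB of 6 h of TWEAK made up 9.09% (1.12 to 29.2%), beside 27.3% of all and 15.7% outside tandem repeats. The shared sites of MCL1 and PMAIP1 both lay more than 1 kb from a protein-coding start, as did 15 of the 22 sites. Both lacked a full match to the κB consensus within 100 bp of the summit, as did 13 of the 22. Neither trait was therefore particular to the shared sites.

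By position, 4 of the 10 genes had a RELA site within 1 kb of their own start, namely CFLAR, MCL1, BCL2L11 and PMAIP1, against 8.48% of all genes. With the sites at the starts of CASP10, ST20-MTHFS and BPHL, 7 of the 22 lay within 1 kb of a protein-coding start (31.8%, 13.9 to 54.9%), beside 13.6% of all RELA peaks and 17.9% outside tandem repeats. For 15 of the 22 sites the start nearest to the summit was that of the gene itself. The 7 others were nearer to CASP10 (2 sites), ENSA (2 sites), ST20-MTHFS, BCL2L13 or BPHL, so the assignment of the strongest CFLAR and RIPK1 sites and of the RELB site of MCL1 rests on the window alone.

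H3K27ac peaks were found in all 10 windows in each of the 5 lists, which is close to the background of 91.5% for vehicle, 90.2% and 91.5% for TNFα (30 min and 6 h), and 90.6% and 91.1% for TWEAK (30 min and 6 h). At the canonical starts of CFLAR, XIAP, BCL2L1, MCL1, BCL2L11, PMAIP1, BID and RIPK1 a peak lay within 500 bp in all 5 lists. The fold in vehicle ranged there from 1.91 at BCL2L1 to 4.26 at BID. These peaks were 3551 and 1268 bp long, and fold alone does not rank the extent of acetylation. In vehicle, H3K27ac covered 17375 bp of the BCL2L1 window and 4196 bp of that of BID. The BCL2A1 start had no peak in any list, and the CASP8 start had a weak peak in vehicle (1.77-fold), in the 6 h TNFα list (1.71-fold) and in the 30 min TWEAK list (1.77-fold), and none in the others.

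Most RELA sites of these genes lay in chromatin that was already acetylated. In vehicle, 18 of the 22 had H3K27ac within 500 bp of the summit (81.8%, 59.7 to 94.8%), beside 60.1% of all RELA peaks and 63.2% of those outside tandem repeats. All 18 kept a peak in the other 4 lists, a pattern shown by 52.9% of all and 58.4% of RELA peaks outside tandem repeats. After 30 min of TNFα 19 of the 22 had H3K27ac (86.4%, 65.1 to 97.1%), beside 71.2% of all and 74.3% outside tandem repeats. The 3 sites without H3K27ac in any list were those of the BCL2A1 intron, of PMAIP1 at 27.4 kb and of BID in BCL2L13. Some neighbours shared an H3K27ac peak, so the 18 sites are not 18 separate acetylated regions.

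The site in intron 3 of BID was the only one of the 22 with H3K27ac at 30 min of TNFα and not in vehicle (4.55%, beside 13.1% of all RELA peaks), and none had it in vehicle alone (2.03% of all). No H3K27ac peak was called there in vehicle. After 30 min of TNFα a peak of 583 bp reached 5.28-fold, rank 2162 of 53895 in its list. After 6 h it was 3.32-fold. With TWEAK it was 2.51-fold in the 30 min list and absent from the 6 h list. Presence in both TNFα lists and not in vehicle was seen at 6.54% of all RELA peaks.

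At the strongest BID site, 7.45 kb upstream, the acetylated region was longer in the lists after TNFα than in vehicle. Its H3K27ac peak was 483 bp long in vehicle, 1462 and 1575 bp after TNFα (30 min and 6 h), and 300 and 666 bp after TWEAK (30 min and 6 h). The corresponding fold enrichment was 2.53, 3.58, 3.46, 2.59 and 3.255. The length after 30 min of TNFα was 3.03 times that in vehicle, which placed the site in the top 2.13% of the 6541 RELA peaks with H3K27ac in both lists, whose median ratio was 0.998. At 6 h of TNFα the ratio was 3.26 (top 1.53%), and after TWEAK it was 0.621 at 30 min and 1.38 at 6 h (top 4.57%). The 18 acetylated sites as a whole had a median length ratio of 1.01 at 30 min of TNFα. The RIPK1 site, at the BPHL start, was strongly acetylated in all 5 lists, at 5.18-fold in vehicle. It was 4.68-fold and 4.77-fold after TNFα (30 min and 6 h), and 5.45-fold and 5.97-fold after TWEAK. Its peak was 1330 bp long in vehicle and 1663, 1415, 1286 and 1224 bp in these lists, in the same order. The CFLAR site, at the CASP10 start, was 3.905-fold in vehicle. It was 4.41-fold and 4.85-fold after TNFα (30 min and 6 h), and 4.48-fold and 4.97-fold after TWEAK. Its H3K27ac peak was 1480 bp long in vehicle and shorter in each of these lists, at 1263, 1098, 1150 and 1084 bp. Among all RELA peaks acetylated in vehicle and in the treated list, 62.9% and 48.1% had a higher fold after TNFα than in vehicle. After TWEAK 55.6% and 72.9% did.

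**Figure D4:**
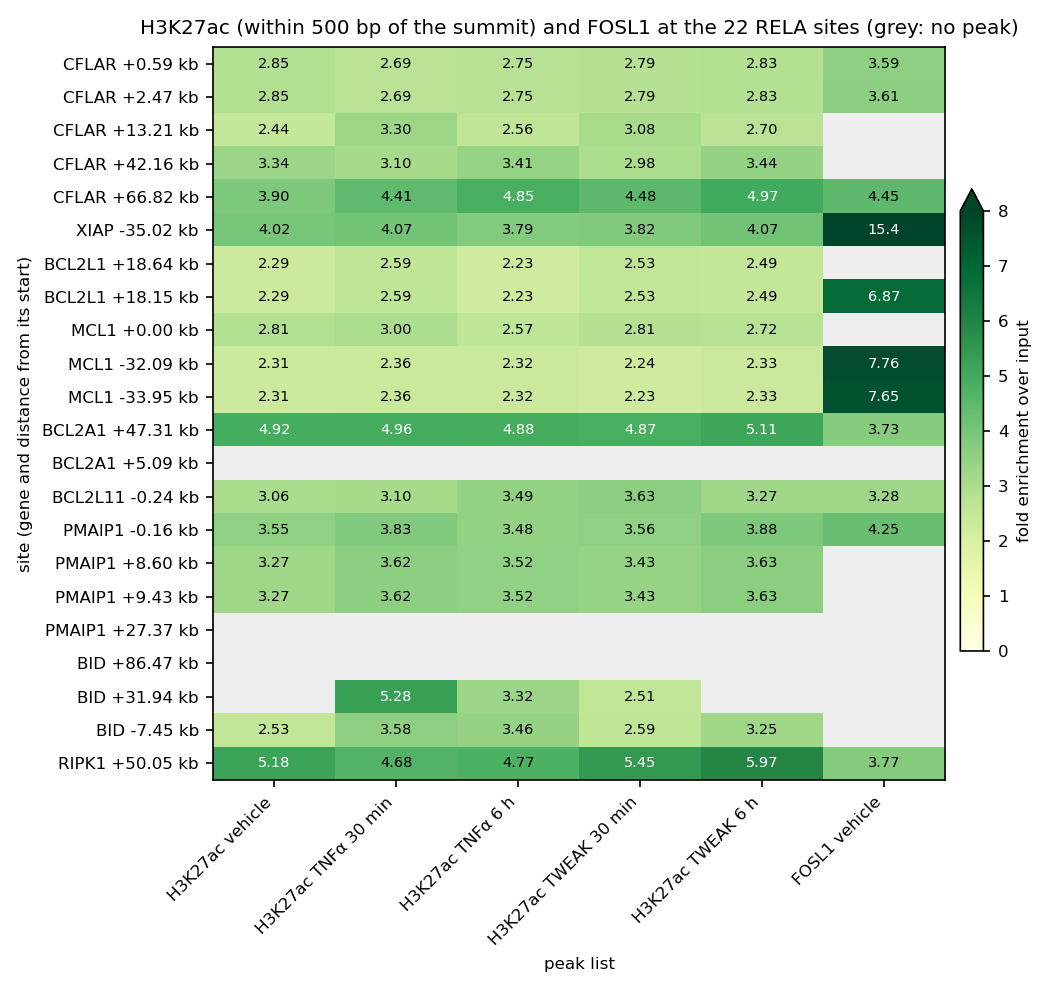
Fold enrichment over input of the strongest H3K27ac peak within 500 bp of the RELA summit in 5 lists, and of the overlapping FOSL1 peak in vehicle (columns), at the 22 sites (rows, gene and distance from its start), with grey where no peak was called. H3K27ac is present in all 5 lists at 18 sites, in none at 3, and in some at the BID intron site, and XIAP has the strongest FOSL1 peak (15.4).

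The number of H3K27ac peaks per window in vehicle ran from 2 around BCL2A1 to 14 around MCL1, with a median of 7 beside 5 over all genes. BCL2L11 had 4 peaks in each of the 5 lists. PMAIP1 had 4 in vehicle, 3 and 7 after TNFα (30 min and 6 h), and 3 and 9 after TWEAK (30 min and 6 h). Its higher counts were thus those of the later times. At 6 h, only 1 of its peaks after TNFα and 2 after TWEAK overlapped no vehicle peak. The length covered in its window was 7251 bp in vehicle, 7576 bp at 6 h of TNFα and 6355 bp at 6 h of TWEAK. These counts therefore do not rank the extent of acetylation. The length covered by H3K27ac in the 10 windows at 30 min of TNFα was 0.909 times that in vehicle, beside 0.813 over all chromosomes. Of the 77 H3K27ac peaks of the 10 windows at 30 min of TNFα, 15 (19.5%) overlapped no vehicle peak, beside 18.5% over all chromosomes. At 6 h of TNFα 11 of 86 did so (12.8%, beside 16.7%). After TWEAK the new peaks were 10 of 74 at 30 min (13.5%, beside 17.6%) and 5 of 77 at 6 h (6.49%, beside 12.2%). Conversely, of the 73 vehicle peaks of the windows, 13 were absent at 30 min of TNFα (17.8%, beside 27.8% over all chromosomes) and 2 at 6 h (2.74%, beside 15.6%). In the TWEAK lists 9 were absent at 30 min (12.3%, beside 24.6%) and 6 at 6 h (8.22%, beside 20.2%). The share of absent vehicle peaks was thus lower in the 10 windows than over all chromosomes in each of the 4 lists, a description of these lists with no test. The strongest new peak of the 10 windows at 30 min of TNFα was that of the BID intron (5.28-fold), followed by CFLAR 61.2 kb from its start (3.75-fold) and a peak past the CASP8 gene start (3.52-fold). New peaks thus also appeared in the CASP8 window, where RELA was not called.

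FOSL1 was present in vehicle in all 10 windows, as in 90.5% of all genes, with 2 peaks around BCL2A1 and 14 around MCL1. In between were BCL2L1 with 12, CFLAR with 9, PMAIP1 with 7, BCL2L11 and RIPK1 with 5 each, and XIAP, BID and CASP8 with 4 each. The median of 5 per window compared with 4 over all genes. The strongest peak per window ranged from 3.73-fold (BCL2A1) to 15.4-fold (XIAP). CASP8, without RELA, had 4 FOSL1 peaks of up to 7.12-fold. Of the 22 RELA sites, 11 overlapped a FOSL1 peak (50.0%, 28.2 to 71.8%), beside 58.0% of all RELA peaks and 48.8% outside tandem repeats. They were spread over CFLAR (3 sites), MCL1 (2 sites) and XIAP, BCL2L1, BCL2A1, BCL2L11, PMAIP1 and RIPK1 (1 site each), and BID had none. At these 11 the summits of FOSL1 and RELA lay between 1 and 176 bp apart. The FOSL1 peaks at the sites of XIAP, BCL2L1 and MCL1 were 6.87-fold to 15.4-fold. Those at the other overlapping sites were 3.28-fold to 4.45-fold, below the median of 4.99 of the FOSL1 list.

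A κB consensus lay within 100 bp of the summit at 9 of the 22 sites (40.9%, 20.7 to 63.6%), beside 34.8% of all RELA peaks and 46.2% of those outside tandem repeats. BID held it at 3 of 3 sites and CFLAR at 4 of 5, and BCL2A1 and PMAIP1 at 1 each. XIAP, BCL2L1, MCL1, BCL2L11 and RIPK1 had no match. AP-1 letters lay within 100 bp of 5 summits (22.7%, 7.82 to 45.4%), beside 14.4% of all and 19.0% outside tandem repeats. Of the 2 sites in the top 5% by fold, that of BID had the κB letters and no FOSL1 peak. That of RIPK1 had a weak FOSL1 peak (3.77-fold, rank 48741 of 58864) and no κB letters.

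Of 25 other genes of the apoptosis pathway, listed by function, 16 (64.0%) had a RELA peak at 30 min of TNFα, beside 48.1% of all genes. At 6 h of TNFα 11 (44%) did, beside 26.8%. Both counts include CASP10, whose strongest peak at each time was the strongest CFLAR site described above. The RELA list of 30 min of TWEAK held 5 of the 25 (20.0%, beside 7.58% of all genes). That of 6 h of TWEAK held 2 (8.0%, beside 5.12%) and that of vehicle 2 (8.0%, beside 5.05%). RELB was present at 7 of the 25 (28%) at 6 h of TWEAK, beside 13.6% of all genes, and at 2 (8.0%), FADD and MLKL, both in vehicle and at 6 h of TNFα. Near starts, BBC3 (PUMA, a BH3-only protein) had a RELA site 165 bp upstream at 12.03-fold, which was 11.4-fold at 6 h of TNFα and 8.63-fold at 30 min of TWEAK. DIABLO (SMAC, which relieves caspases from XIAP) had a site 270 bp upstream at 11.2-fold. FADD, the adaptor that recruits caspase-8, and MLKL, the effector of necroptosis, had strong sites 43.5 and 42.9 kb upstream, at 17.9-fold and 19.0-fold. Unlike those of the 10 genes, these were also called in the RELA list of vehicle, at 9.53-fold for FADD and 9.86-fold for MLKL. The start nearest to the MLKL site was that of FA2H, so its assignment to MLKL rests on the window alone.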

How the data were processed

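Peak lists of 16 conditions were used as deposited, 11 of narrow peaks (RELA, RELB, FOSL1) and 5 of broad peaks (H3K27ac). The authors mapped paired-end reads to hg38 with Bowtie2 (version 2.5.0 in the submitters' processing notes), processed them with SAMtools 1.18 and deepTools 3.3.2 and called peaks with MACS2 against input, on merged replicates. The version of MACS2 is not given in the sources used here. The deposited fold enrichment is the authors' ratio of ChIP over input, and the deposited −log10 q is the significance of a peak. For narrow peaks the deposited summit offset gives the position. The broad peaks of H3K27ac have no summit offset, so their fold stands for a region whose length varies. The 16 columns of −log10 p and the score derived from q were not used.

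Only the peaks of the autosomes and of X and Y entered. Gene bodies and canonical transcripts were those of GENCODE 44, and distances were measured from the start of the Ensembl canonical transcript. A peak belonged to a window if it overlapped by 1 bp, RELA and RELB peaks that overlapped were merged to sites, and ranks were by fold within a list. FOSL1 needed 1 bp of overlap and H3K27ac a peak within 500 bp of the RELA summit. The κB consensus, its looser form and TGANTCA were searched on both strands within 100 bp of the summit. Only full matches counted, so a site without a match can hold a near match. Tandem repeats had a self-match of at least 0.4 in the 1000 bp around the summit at shifts of 1 to 400 bp. Own code was run with Python 3.11.15, numpy 2.4.6, pandas 2.3.3, scipy 1.17.1 and pysam 0.24.0, tested on simulated data, and gave the same 22 sites as bedtools 2.31.1. Shares carry exact (Clopper-Pearson) 95% intervals, which cover counting error only. Depth per sample is unknown.

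The genes, the lists and the limit for tandem repeats were chosen with earlier results of these data known. By rule, the strongest RELA site of each gene and each site shared by RELA after TNFα and RELB at 6 h of TWEAK were named, with sequence for those holding a κB consensus outside tandem repeats. Every further site named was chosen after its values had been seen. The alternatives tried were a stricter q, a fold minimum, the strongest peaks alone, other windows, the nearest start, and other overlap, acetylation and motif limits.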

Additional observations from a re-analysis of the deposited data

How the results depend on the processing

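No paired analysis was possible because each condition has 1 peak list called on merged samples, and for the same reason no replicate could be left out. Of 95 values under 14 alternative settings, 80 stayed within 1.5 times the count or within the interval of the share. The others follow, and where a setting keeps fewer peaks or a narrower window, that explains a lower count. With the 3000 strongest peaks of each list, 5 RELA sites at 3 genes were left at 30 min of TNFα, 100% of them with H3K27ac at that time. With a fold of at least 5, the share of RELA sites overlapping FOSL1 was 25.0% of 16 sites, as FOSL1 was held to the same limit. With 10 kb on either side, RELB at 6 h of TWEAK had 1 site at 1 gene. With sites assigned to the nearest start, it also had 1 site at 1 gene, and RELA at 30 min of TWEAK was at 0 genes, because the RIPK1 site is nearer to BPHL. The share of all protein-coding genes with RELA at 30 min of TNFα was 46.6% with a q of at most 0.001, 41.2% with a fold of at least 5, 22.1% with the 3000 strongest peaks, 28.5% with 10 kb, 62.7% with 100 kb and 47.2% without tandem repeats. Peak lists hold only called peaks, so a missing peak is not a measurement of 0, and weak sites of BCL2L1, BCL2A1 and BCL2L11 are near the end of the list.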
